A study of Mus musculus with 57 samples.

Results

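The genes described here are 10 secreted signals of inflammation: the CC chemokines Ccl3, Ccl4, Ccl9, Ccl2 and Ccl7, the CXC chemokines Cxcl1 and Cxcl2, tumour necrosis factor (Tnf), and interleukin 1 alpha and beta (Il1a, Il1b). They were selected by name, with their difference between the states in these cells already known, and all 10 were found among the 12885 mouse genes of the deposited table. The selection used the values of the dormant and proliferating cells themselves, so the levels and the differences below are given as a description, with no test.

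The samples are 57 single cells deposited as RM1, a mouse prostate cancer line that carried genes for the cyan fluorescent protein cerulean (eCFP) and for luciferase (Luc2). RM1 cells had been stained with the membrane dye PKH26, which is diluted as cells divide, and put into C57BL/6 mice through the heart, and single cells were later sorted from bone. The 28 cells that kept the dye are the dormant group and the 29 cells without it are the proliferating group. They came from 8 mice on days 13 to 26. Dormant cells came from 6 mice (244, 360, 369, 452, 1184 and 1185), proliferating cells from 6 (268, 288, 360, 369, 452 and 1185), and 4 mice gave both. The labels give the 1 line and the 1 mouse strain for both groups, and no animal had a drug treatment in the labels. However, 6 dormant-labelled libraries described below were low in the transgene and keratin transcripts of that line. The label is a transgene of the injected line and the dye is a stain, so neither is made by the host's own cells. Mouse 244 for the dormant state and mouse 288 for the proliferating state gave 1 cell each.

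Chemokines are small proteins that guide leukocytes along a gradient. Ccl3, Ccl4 and Ccl9 attract monocytes and other leukocytes, Ccl2 and Ccl7 draw monocytes out of bone marrow through Ccr2, and Cxcl1 and Cxcl2 recruit neutrophils through Cxcr2. Tnf and interleukin 1 are alarm cytokines that switch on the transcription factor NF-kB in the cells that receive them, and NF-kB in turn activates many chemokine genes, including their own. Macrophages, monocytes and neutrophils are known as strong producers of Tnf, interleukin 1, Ccl3 and Ccl4, whereas Ccl2, Ccl7 and Cxcl1 are also made by fibroblasts, endothelium and many tumour cells.

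Of the 10 genes, 5 lie on chromosome 11 of GRCm38, in a pair of neighbourhoods. Ccl2 (chr11:82035571-82037453, plus strand) and Ccl7 (chr11:82045712-82047525, plus strand) are neighbours, and a second group holds Ccl9 (chr11:83572919-83578636, minus strand), Ccl3 (chr11:83647844-83649355, minus strand) and Ccl4 (chr11:83662584-83664683, plus strand). Cxcl1 (chr5:90891241-90893115) and Cxcl2 (chr5:90903871-90905938) lie side by side on the plus strand. Il1a (chr2:129299610-129309972) and Il1b (chr2:129364570-129371139) are neighbours on the minus strand, and Tnf (chr17:35199381-35202007) is also on the minus strand. The values are sums over a whole protein-coding gene. Ccl2 overlaps the antisense gene Gm17268, Il1a overlaps Gm14023 and Il1b overlaps Il1bos, and no strand setting of the counting is given in the sources used here, so reads of such partners cannot be told apart.

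Cxcl1 and Cxcl2 are shown by their promoters because they are adjacent members of 1 family whose values over these cells differed. Ccl3 and Tnf are shown beside them because their values were the most alike of any pair of the 10 genes. The RefSeq table of GRCm38.p6 promoters held 7 of the 10 genes (Ccl3, Ccl9, Cxcl1, Cxcl2, Tnf, Il1a and Il1b); Ccl2, Ccl4 and Ccl7 had no entry. Each line gives the 250 bases that end just before the start annotated in RefSeq, 5′ to 3′ on the gene's own strand. For Cxcl1, Cxcl2 and Ccl3 that start differs from the gene positions given above. Matches to the NF-kB motif (GGG, 2 bases of any kind and then TTTCC) or the AP-1 motif TGANTCA, on either strand, are in capitals.
Cxcl1 (chr5:90890995-90891244, plus strand): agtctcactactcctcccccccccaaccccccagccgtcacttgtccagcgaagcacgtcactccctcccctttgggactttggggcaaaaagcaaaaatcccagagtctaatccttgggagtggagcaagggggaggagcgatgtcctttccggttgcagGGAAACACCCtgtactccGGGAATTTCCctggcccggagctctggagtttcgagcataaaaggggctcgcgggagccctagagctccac
Cxcl2 (chr5:90903649-90903898, plus strand): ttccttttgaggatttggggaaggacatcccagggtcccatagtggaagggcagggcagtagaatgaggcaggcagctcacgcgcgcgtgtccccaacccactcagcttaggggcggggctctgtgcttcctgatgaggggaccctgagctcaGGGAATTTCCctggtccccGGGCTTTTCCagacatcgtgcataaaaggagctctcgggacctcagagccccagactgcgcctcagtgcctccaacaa
Ccl3 (chr11:83649379-83649628, minus strand): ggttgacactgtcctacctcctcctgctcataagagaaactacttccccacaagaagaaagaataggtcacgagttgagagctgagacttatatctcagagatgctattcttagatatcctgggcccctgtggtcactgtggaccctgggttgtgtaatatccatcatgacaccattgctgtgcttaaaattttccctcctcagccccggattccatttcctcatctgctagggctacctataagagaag
Tnf (chr17:35202008-35202257, minus strand): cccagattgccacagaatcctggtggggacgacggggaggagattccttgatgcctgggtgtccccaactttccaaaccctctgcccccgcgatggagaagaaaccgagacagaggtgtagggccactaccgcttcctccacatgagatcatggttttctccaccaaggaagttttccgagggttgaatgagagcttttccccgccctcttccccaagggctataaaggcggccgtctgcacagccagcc

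The Cxcl1 and Cxcl2 windows each held 2 matches to the NF-kB motif, 1 of which was GGGAATTTCC in both genes. The match nearest the start began 71 bases before it in Cxcl1 and 78 bases before it in Cxcl2. The Ccl9 window held 1 match, beginning 35 bases before the start. This motif occurred in 1.41% of 32851 mouse promoter windows of the same length and in 3 of the 7 windows of these genes. The AP-1 motif occurred in 6.75% of the windows and in those of Ccl9 and Il1a, and the letters TATAAA occurred in 12.4% and in those of Ccl9, Il1a, Il1b and Tnf. The Ccl3, Tnf and Il1b windows held neither of the motifs shown in capitals. A match is a run of letters and not a measured binding site, and these windows leave out more distant enhancers.

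The cells were first described by the tumour label and by transcripts of leukocytes. Of the 28 dormant cells, 6 from 4 mice had under 100 normalised reads of eCFP (0 to 87.6), whereas the other 22 dormant and all 29 proliferating cells had at least 327. Krt8, a keratin of epithelial tumour cells, stood at 0 to 9.40 normalised reads in the 6 low-label cells and at 87.8 or more in every labelled cell. The 6 low-label cells had 11 to 18 of 18 pan-leukocyte genes above 0 and Lyz2, the lysozyme of macrophages and neutrophils, at 52145 to 188632. Luc2 stood at 2.275 to 230 normalised reads in them and at 1850 or more in every labelled cell. Cell 27 held the most of both transgenes, with eCFP at 87.6 and Luc2 at 230. Its library was thus low in the label and not free of it. By these values the 6 libraries go against their label as RM1 cells, cell 27 less so than the others. A labelled cell was called leukocyte-rich when at least 5 of the 18 pan-leukocyte genes were above 0, which held for 11 of 22 labelled dormant and 12 of 29 proliferating cells. One of the 18, Arhgdib, was above 0 in all 57 cells, so its presence alone does not separate the groups. Recovered depth was 943496 to 5273065 reads per cell, with 2397 to 10507 genes above 0.

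The 10 genes fell into those seen mainly in cells with much leukocyte transcript and those seen throughout the labelled tumour cells. Over all 10 genes, 78.3% of the 60 values in the low-label cells were above 0 (95% exact binomial interval 65.8 to 87.9%). The share was 60.9% of 110 values (51.1 to 70.1%) in labelled leukocyte-rich dormant cells and 23.6% of 110 (16.1 to 32.7%) in the other labelled dormant cells. It was 44.2% of 120 values (35.1 to 53.5%) in leukocyte-rich proliferating cells and 25.9% of 170 (19.5 to 33.1%) in the other proliferating cells. These intervals treat values as independent and cover counting error only, since cells of a mouse and genes of a cell share their source. The other labelled cells of the 2 states thus had nearly equal shares, made up mostly of Ccl2, Ccl7 and Cxcl1, and the higher shares lay in the low-label and leukocyte-rich cells. No share over all genes was taken beside these. The median number of genes detected was 5224.5 in low-label cells, 7950 in the other labelled dormant and 6917 in the other proliferating cells. It was 7572 in leukocyte-rich dormant and 8524 in leukocyte-rich proliferating cells.

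**Figure D1:**
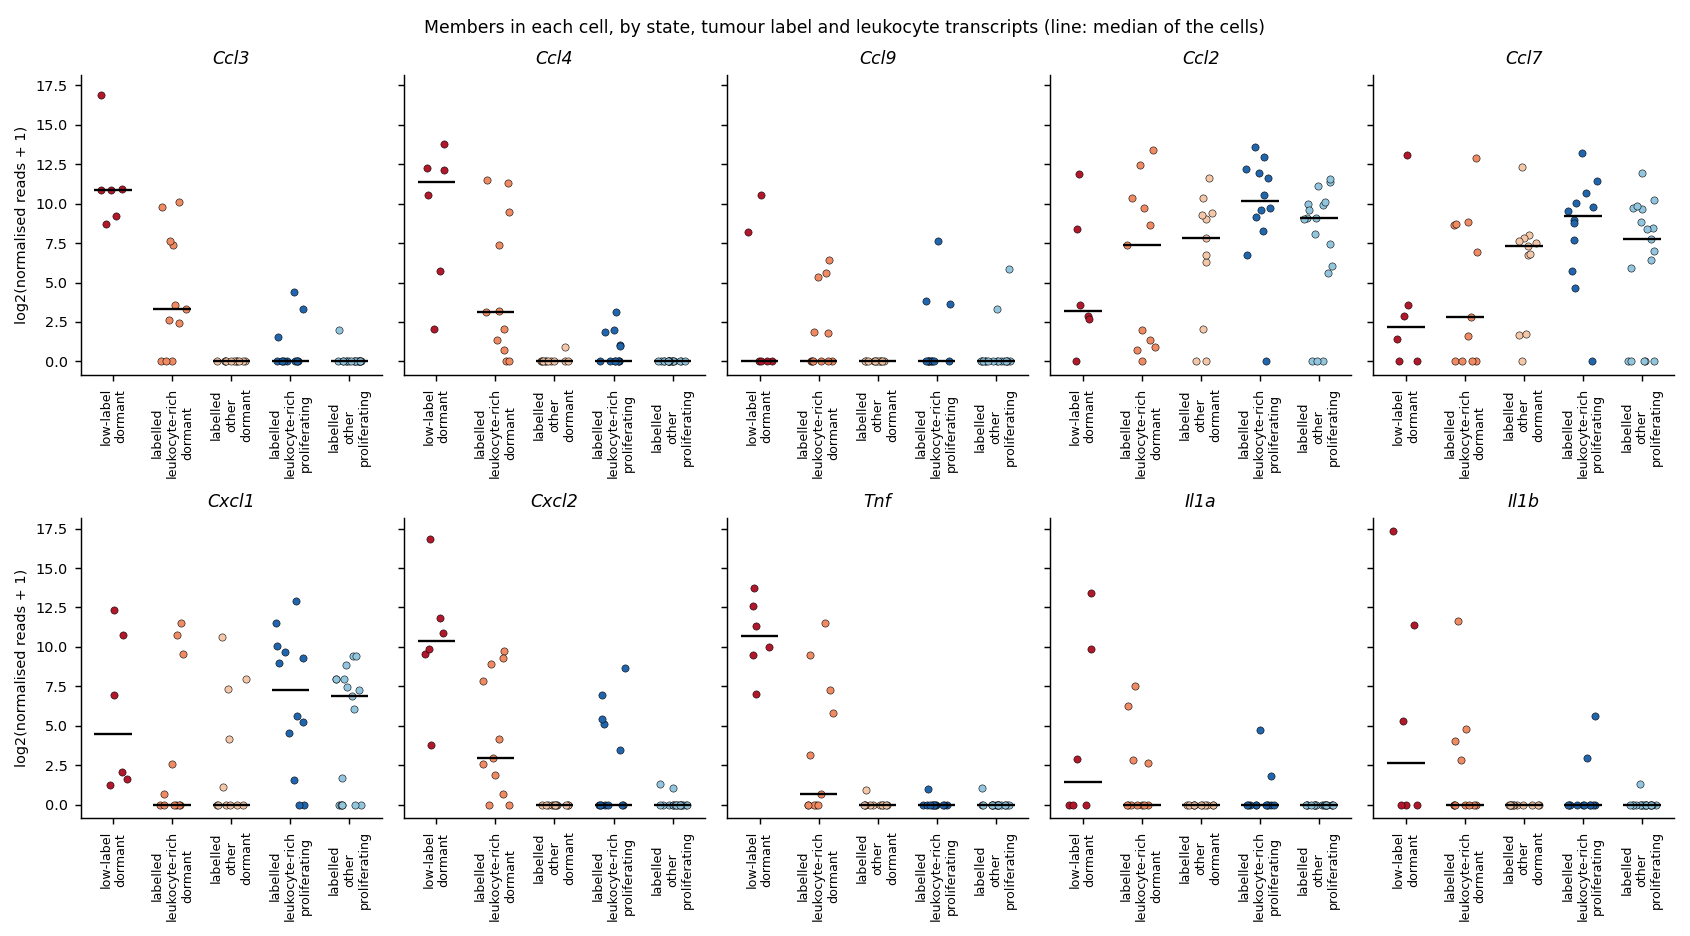
Each point is 1 cell, on the log2(normalised reads + 1) axis, in 5 groups of cells by state, tumour label (eCFP of 100 normalised reads) and pan-leukocyte genes; the line is the median of the cells. Ccl3, Ccl4, Cxcl2 and Tnf are above 0 in 6 of 6 low-label dormant cells and at 0 in most other labelled cells, while Ccl2 and Ccl7 are above 0 in most labelled cells of both states.

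Ccl3 was detected, that is above 0, in 14 of the 28 dormant cells and 4 of the 29 proliferating cells. Its values in the 6 low-label cells were 417 (cell 33), 599 (cell 103), 1834 (cell 27), 1898 (cell 110), 1947 (cell 111) and 120534 (cell 25) normalised reads. In 4 labelled dormant cells it was 164 (cell 26), 199 (cell 29), 867 (cell 104) and 1075 (cell 105), and in no other cell did it pass 20.4. Cell 25 of mouse 369 alone held 93.0% of the Ccl3 summed over all 57 cells.

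The 10 cells with at least 100 normalised reads of Ccl3 were the 10 cells with the most Lyz2, 2940 to 188632 normalised reads. The remaining 47 cells had at most 1251 of Lyz2. A threshold of 2000 for Lyz2, set after these values were seen, parts the 10 cells from the 47. All 10 carry the dormant label and come from mice 244, 360, 369 and 1184, and 4 of them are labelled, with eCFP of 418 to 1980. In those 4, Krt8 stood at 560 to 3679 normalised reads, so transcripts of the tumour cell and of the leukocyte were present in the same library.

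Ccl4, the closest relative of Ccl3 in this set, was above 0 in 16 dormant and 5 proliferating cells. It stood at 3.13, 51.6, 1511, 4542, 4943 and 14059 normalised reads in low-label cells 25, 33, 111, 110, 103 and 27. It was 165, 701, 2479 and 2912 in labelled dormant cells 29, 26, 104 and 105, and at most 8.03 in any of the remaining 47 cells. Cell 25, which had the most Ccl3, had nearly no Ccl4, and cell 27 had the most Ccl4, with 44.8% of the sum. Cells 25 and 33 were also those with much S100a8, a calprotectin subunit abundant in neutrophils, at 378089 and 180886 normalised reads, against 0 to 11.5 in the other 4 low-label cells. Cell 25 had 8 of 10 neutrophil markers and 2 of 12 monocyte and macrophage markers above 0, and cell 33 had 10 of 10 and 9 of 12. Cell 27 likewise had 8 of 10 neutrophil markers above 0, and 11 of 12 monocyte and macrophage markers. The neutrophil markers summed to 821 normalised reads in cell 27 and 788030 in cell 25. Cell 33 also had 4 of 4 B cell markers, the T and NK cell gene Nkg7 at 1538 and both haemoglobin genes. Its library thus held transcripts of several lineages, and it alone gives the dormant means of mouse 244.

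Tnf, the alarm cytokine made as a membrane precursor, was above 0 in 13 dormant and 2 proliferating cells. Its values in low-label cells 33, 111, 27, 103, 110 and 25 were 127, 703, 1013, 2601, 6251 and 13547 normalised reads. Labelled dormant cells 26, 29, 104 and 105 had 54.7, 155, 728 and 2968. The other 5 cells with any Tnf had at most 8.03, and of the 29 proliferating cells those 2 with Tnf had about 1 normalised read.

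Cxcl2 was above 0 in 15 dormant and 7 proliferating cells. Low-label cells 33, 111, 103, 27, 110 and 25 had 12.9, 735, 932, 1872, 3580 and 116262 normalised reads of it, and labelled dormant cells 26, 104, 29 and 105 had 225, 475, 625.4 and 848. Cell 25 held 92.1% of its sum. Outside the 10 cells, Cxcl2 reached 100 normalised reads in 2 cells, both proliferating cells of mouse 369 (397 in cell 5 and 125 in cell 42). Of the 7 proliferating cells with Cxcl2, 6 came from mouse 369, which gave 13 of the 29 proliferating cells, and 1 from mouse 1185.

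The interleukin 1 genes were the rarest, and they came from few cells. Il1b was above 0 in 7 dormant and 3 proliferating cells, with 163077 normalised reads in cell 25, 3241 in labelled dormant cell 29, 2717 in cell 27 and at most 48.2 elsewhere. Cell 25 held 96.4% of the sum. Il1a was above 0 in 7 dormant and 2 proliferating cells, with 10857 in cell 27, 949 in cell 111, 187 in cell 29 and at most 74.9 elsewhere. Cell 25, with the most Il1b, was at 0 for Il1a, and cell 27 held 89.6% of the Il1a sum. Il1a was above 0 in 0 of the 28 other labelled cells. Counting error alone allows a share of cells with a read of up to 10.7% there, and the spread between mice is not in that limit.

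Ccl9 was above 0 in 7 dormant and 5 proliferating cells. It was highest in low-label cells 111 and 33, at 1513 and 292 normalised reads, and at 0 in the other 4 low-label cells. The third highest value, 195, was in proliferating cell 113 of mouse 360, which had no Lyz2. Of its sum, 87.2% lay in the 10 cells with high Lyz2, against 99.5 to 99.96% for Ccl3, Ccl4, Cxcl2, Tnf, Il1a and Il1b, shares that rest largely on single cells.

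**Figure D2:**
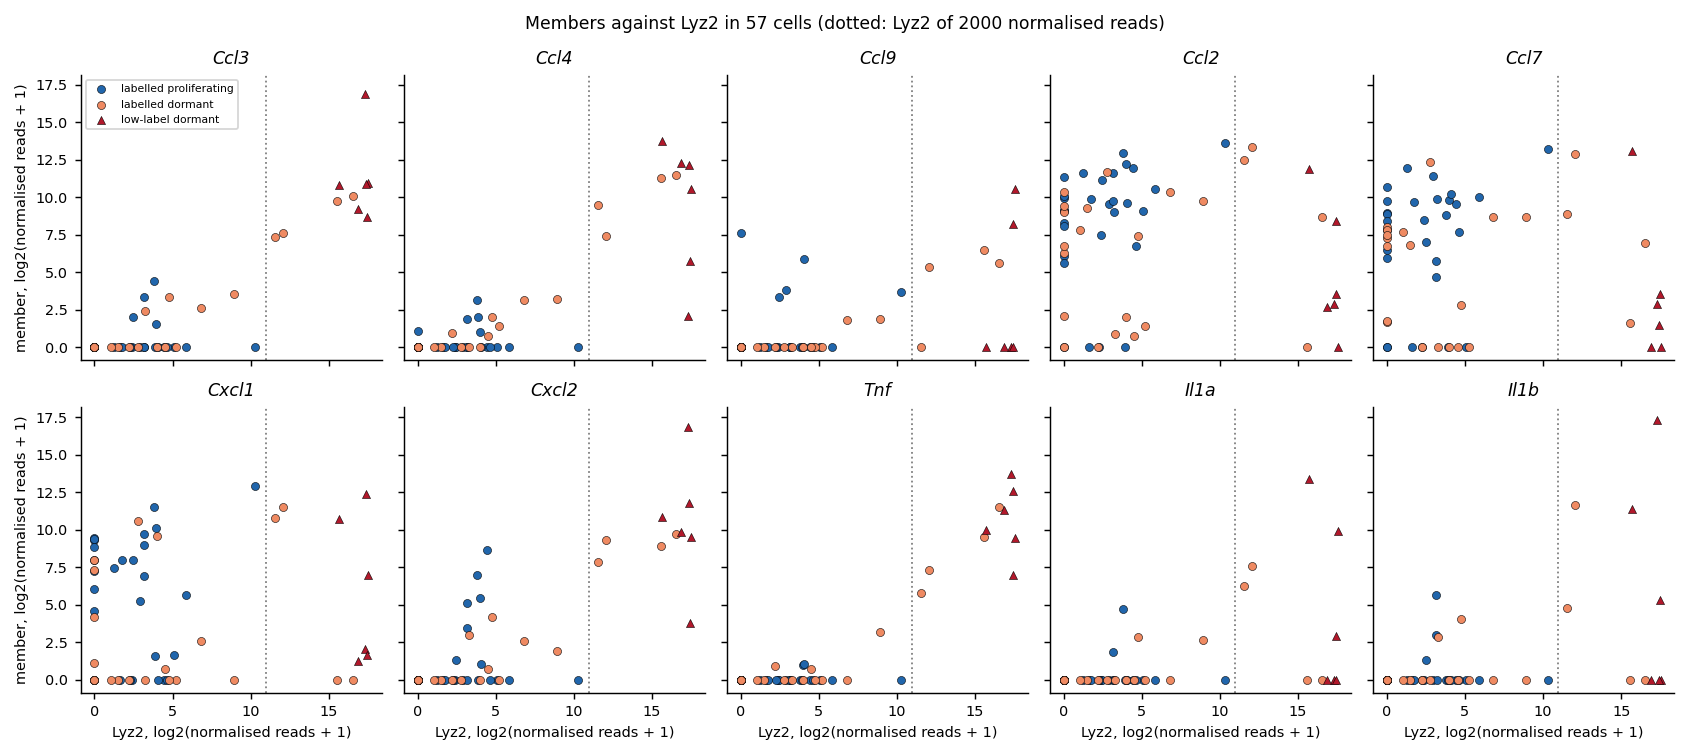
Each point is 1 of 57 cells, with Lyz2 on the x axis and each of the 10 genes on the y axis, both as log2(normalised reads + 1); the dotted line is a Lyz2 of 2000. Ccl3, Ccl4, Cxcl2 and Tnf are high only to the right of the line apart from 2 cells for Cxcl2, while Ccl2, Ccl7 and Cxcl1 are high on both sides.

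Ccl2, Ccl7 and Cxcl1 had another distribution. Ccl2, the main ligand of Ccr2, was detected in 24 of the 28 dormant cells and 25 of the 29 proliferating cells. Its median was 137.9 normalised reads in dormant cells (0 to 10565) and 760 in proliferating cells (0 to 12528). In the low-label cells it was 0, 5.32, 6.26, 10.7, 332 and 3821, with a median of 8.50. Proliferating cells held 62.6% of the Ccl2 sum and the 10 cells with high Lyz2 26.0%.

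Ccl7, the neighbour of Ccl2 that shares its receptor, was above 0 in 21 dormant and 23 proliferating cells, with medians of 57.9 (0 to 8567) and 347 (0 to 9572) normalised reads. Both genes were above 0 in 42 cells, Ccl2 alone in 7 and Ccl7 alone in 2. Cxcl1 was above 0 in 16 dormant and 21 proliferating cells, with medians of 1.26 (0 to 5273) and 119.5 (0 to 7717). All 3 genes were highest in proliferating cell 89 of mouse 1185. That cell had 14 of the 18 pan-leukocyte genes above 0, Lyz2 at 1251 and S100a8 at 11263 normalised reads, and eCFP at 1599. It had no Ccl3, Ccl4, Cxcl2, Tnf, Il1a or Il1b.

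These 3 genes were also present where leukocyte transcripts were few. Among the 28 labelled cells with under 5 pan-leukocyte genes, whose Lyz2 was at most 32.6, Ccl2 was above 0 in 23, Ccl7 in 22 and Cxcl1 in 16, with medians of 512, 167 and 9.55 normalised reads. In the same cells Ccl3 and Ccl4 were each above 0 in 1, Ccl9, Cxcl2 and Tnf in 2 and Il1b in 1. Per kilobase of exon, the median level in proliferating cells was 668 normalised reads for Ccl2, 433 for Ccl7 and 63.8 for Cxcl1. In the low-label cells the medians per kilobase were 4585 for Ccl4, 2436 for Ccl3, 1102 for Tnf, 678 for Cxcl2, 34.2 for Cxcl1, 10.1 for Il1b, 7.47 for Ccl2, 4.98 for Ccl7, 1.63 for Il1a and 0 for Ccl9. The levels of Ccl4, Ccl3, Tnf and Cxcl2 in those 6 cells ranged over more than the gaps between them, so their order is that of the medians only.

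The mouse was the replicate for the comparison of the states, with the log2(normalised reads + 1) of its cells averaged separately for each state. Over all mice, limma called 0 of 11841 tested genes at an adjusted p of 0.05, a share of 0%, with 389 genes higher and 736 lower in dormant cells at an unadjusted p under 0.05 (3.29% and 6.22% of tested genes). The 4 mice with both states, with the mouse as a block, gave 0 of 11563 genes, also 0%. On recovered reads, DESeq2 called 308 genes (2.6%), 300 of them higher in dormant cells, and edgeR 18, all higher. The median difference of all tested genes was −0.35, with 36.9% of them higher in dormant cells, so a gene at 0 stood above the typical gene.

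The mean was higher in dormant cells for 7 of the 10 genes and lower for Ccl2, Ccl7 and Cxcl1. Ccl3 averaged 5.84 ± 3.97 (SD, n = 6 mice) in dormant and 0.19 ± 0.32 (n = 6) in proliferating cells. Its dormant mouse means were 0.56 (mouse 1185), 1.92 (452), 5.81 (1184), 7.12 (369), 8.71 (244) and 10.91 (360), and the proliferating ones were 0, 0, 0, 0, 0.39 (1185) and 0.75 (369). The groups overlapped only through mouse 1185, whose 11 dormant cells included none with low label and none with Lyz2 above 477.

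Ccl4 averaged 5.23 ± 3.95 in dormant and 0.19 ± 0.22 in proliferating cells (6 mice each). Its dormant means were 0.72, 1.13, 5.44, 5.72, 7.01 and 11.36 and its proliferating means 0, 0, 0, 0.25, 0.38 and 0.51. It was the only 1 of the 10 whose mouse means did not overlap between the states, as was so, with the dormant means higher, for 5 of the 11841 tested genes (0.0422%). Nothing is read from this, since the gene was selected on the same contrast.

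Tnf averaged 5.18 ± 4.23 against 0.05 ± 0.10, and Cxcl2 5.08 ± 3.67 against 0.57 ± 0.91. The dormant Tnf means were 0 (mouse 452), 0.44 (1185), 6.13 (369), 6.48 (1184), 7.0 (244) and 11.03 (360), and no proliferating mean passed 0.25. Il1b averaged 2.52 ± 3.22 against 0.13 ± 0.31, Il1a 2.26 ± 2.18 against 0.08 ± 0.21, and Ccl9 2.85 ± 3.25 against 0.91 ± 1.48. For Il1b 3 of 6 dormant means were 0 (mice 360, 1184 and 1185). The dormant means of Ccl3, Ccl4, Cxcl2 and Tnf were lowest in mice 452 and 1185, which had no cell of high Lyz2, and higher in the 4 mice that did.

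The differences were smaller when the cells low in the tumour label were left out. The values without the 10 cells of high Lyz2 are given as a description only, since that threshold was set after seeing that these cells, all dormant, held the high values. For Ccl3 the difference was 5.65 on the log2 scale with all cells, 2.61 without the 6 low-label cells and 0.43 without the 10 cells of high Lyz2. Ccl4 went from 5.04 to 2.75 and 0.27, and Cxcl2 from 4.51 to 2.38 and 0.14. Tnf was 5.13 with all cells and 2.19 without the low-label cells. Without the high-Lyz2 cells Tnf, Il1a and Il1b were above 0 in fewer than 6 cells and were not compared. Ccl9 went from 1.95 to 0.27 without the low-label cells, and to −0.82 without those of high Lyz2. Leaving out the low-label cells removes the dormant cells of mice 244 and 360 entirely, so these means rest on 4 dormant mice.

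**Figure D3:**
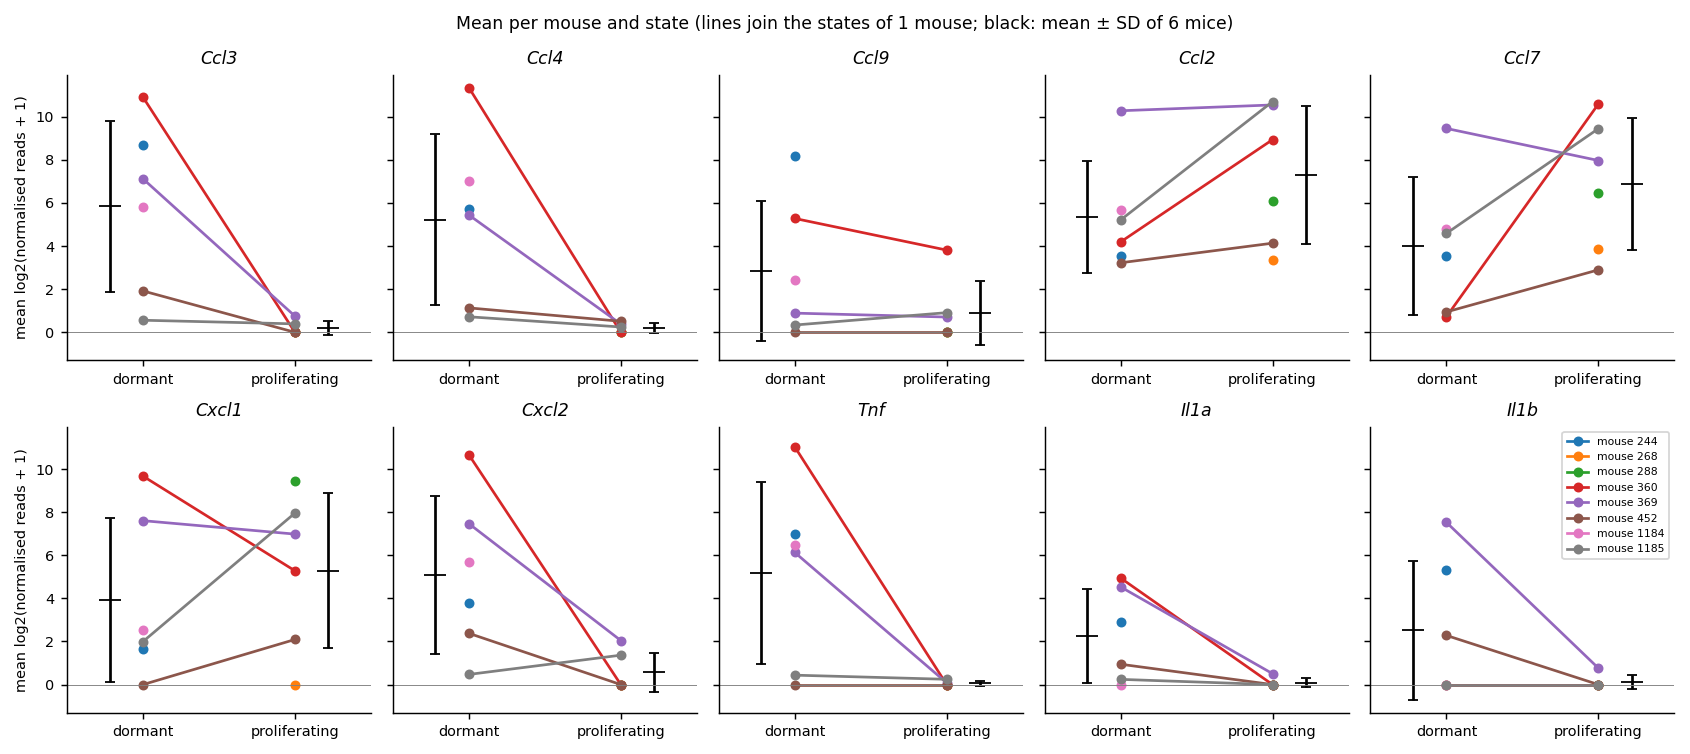
Each point is the mean of log2(normalised reads + 1) over the cells of 1 mouse and state, lines join the states of the 4 mice with both, and black bars are the mean ± SD of 6 mice. Ccl3, Ccl4, Cxcl2 and Tnf fall most steeply from dormant to proliferating in mouse 360, whereas in mouse 1185 Ccl3, Ccl4 and Tnf differ little and Cxcl2 is higher in proliferating cells; Ccl2 is lower in dormant cells in 4 of 4 shared mice with all cells kept and in 2 of 3 with labelled cells only.

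Ccl2 averaged 5.36 ± 2.59 in dormant and 7.30 ± 3.22 in proliferating cells (SD, n = 6 mice each), a difference of −1.94. Its dormant means were 3.22 (mouse 452), 3.55 (244), 4.19 (360), 5.21 (1185), 5.69 (1184) and 10.28 (369), and its proliferating means 3.37 (268), 4.13 (452), 6.08 (288), 8.94 (360), 10.55 (369) and 10.70 (1185). The ranges overlapped for nearly their whole length, and within mice Ccl2 was lower in dormant cells in 4 of 4. With labelled cells only it was lower in 2 of 3, since mouse 369 turned (11.73 dormant, 10.55 proliferating) and mouse 360 had no labelled dormant cell.

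Ccl7 averaged 4.01 ± 3.19 against 6.87 ± 3.06, a difference of −2.86, and was lower in dormant cells in 3 of 4 shared mice, with mouse 369 the other way. Cxcl1 averaged 3.91 ± 3.81 against 5.29 ± 3.62, a difference of −1.38, lower in dormant cells in 2 of 4. Without the low-label cells the differences were −0.64 for Ccl2, −1.44 for Ccl7 and −2.02 for Cxcl1. Without all leukocyte-rich cells they were 1.87, 1.68 and −0.42, each within its SE of 2.13, 2.17 and 2.14. The sign thus turned for Ccl2 and Ccl7. That fit held 11 dormant cells of 3 mice and 17 proliferating cells of 6 mice. It had no dormant cell of mice 244, 360 and 452, so the set of mice changed as well. In that fit the median of all genes also moved, from −0.35 to 0.94, with 76.1% of genes higher in dormant cells, so Ccl2 and Ccl7 went from below the typical gene to above it and Cxcl1 stayed below. The count tools on summed reads also turned the direction of Ccl7 and Cxcl1.

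Ccl2 in labelled cells differed between mice and varied widely within them. In mouse 369 the 4 labelled dormant cells ranged from 681 to 10565 normalised reads and the 13 proliferating cells from 512 to 7919, and no cell of either state was at 0. In mouse 1185 the 11 dormant cells had a median of 78.0 (0 to 1314) and the 4 proliferating cells a median of 3683 (48.4 to 12528). In mouse 452 the 3 dormant cells had 0.860, 1.59 and 169, and the 6 proliferating cells 0 to 539. The medians in mouse 369 were 4448 in labelled dormant and 1094 in proliferating cells. At the median the dormant cells were thus the higher in mouse 369 and the proliferating cells in mouse 1185, with overlapping ranges in both. Ccl2 and Ccl7 also followed the number of genes detected, with a Pearson r of 0.46 and 0.49 over 57 cells, and the part of detection in these differences was not tested.

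The 10 genes also grouped by how they varied together over the 57 cells, which share a platform and differ in depth. These correlations of log2 values are descriptions across cells, and for the genes seen in few cells they are driven by those cells. Ccl2, Ccl7 and Cxcl1 were above 0 in 49, 44 and 37 of the 57 cells. Their r with the number of genes detected was 0.46, 0.49 and 0.23. Ccl3 correlated with Tnf at 0.95, with Cxcl2 at 0.92 and with Ccl4 at 0.83. Ccl2 correlated with Ccl7 at 0.79 and with Cxcl1 at 0.57. The neighbours Cxcl1 and Cxcl2 correlated at 0.15, and Ccl3 and Ccl2 at −0.09. Over the 51 labelled cells Ccl3 and Ccl4 correlated at 0.94 and Cxcl1 and Cxcl2 at 0.11.

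**Figure D4:**
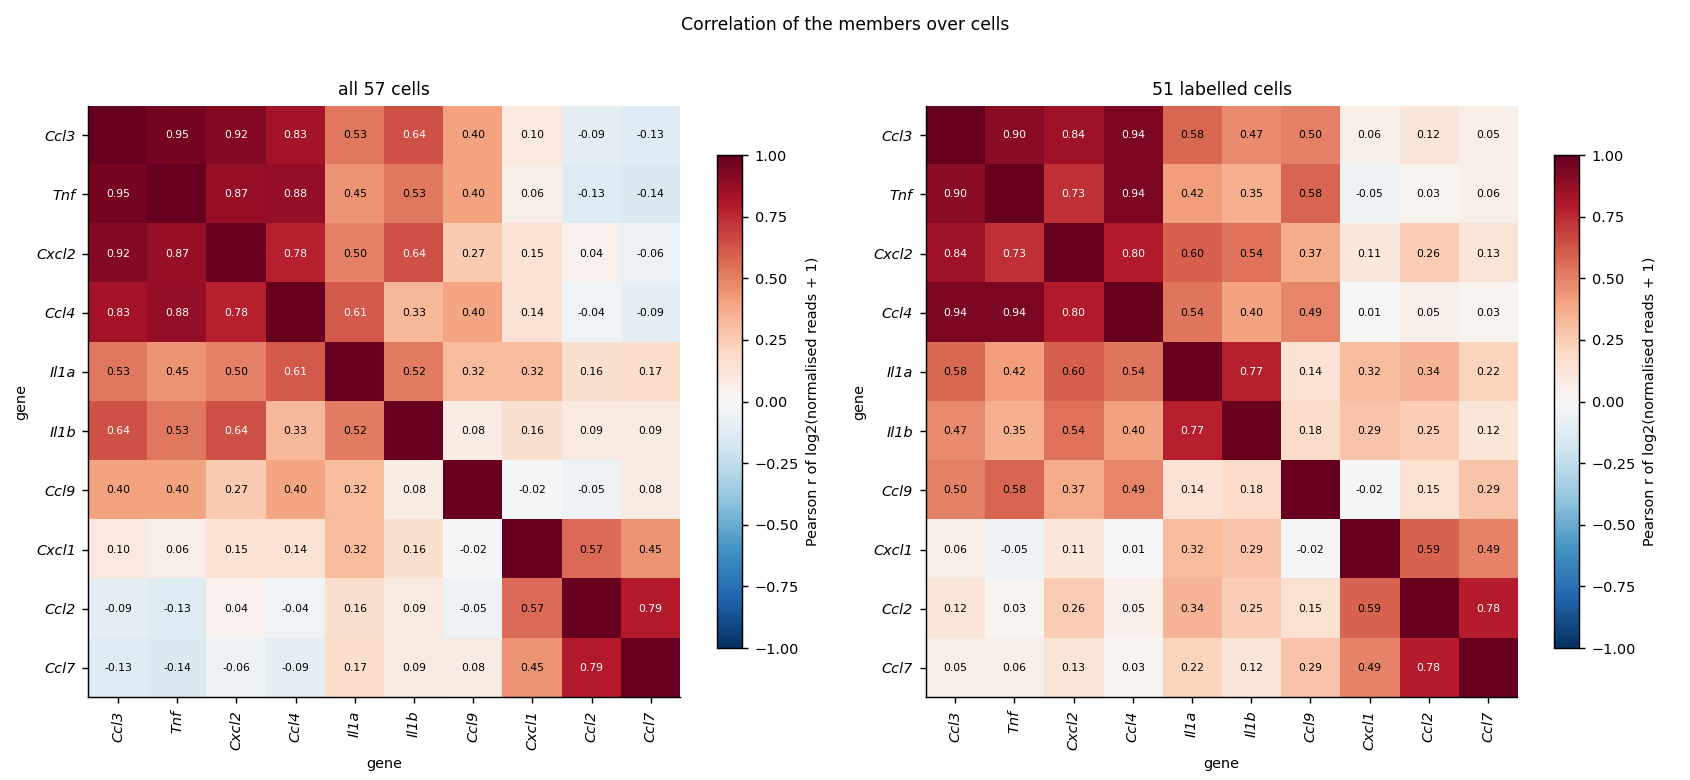
Pearson r of log2(normalised reads + 1) between each pair of the 10 genes, over all 57 cells (left) and over the 51 labelled cells (right), with red for positive and blue for negative values. Ccl3, Tnf, Cxcl2 and Ccl4 form a block of 0.78 to 0.95 over all cells, and Ccl2, Ccl7 and Cxcl1 another of 0.45 to 0.79.

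The same division appeared against the markers. With Lyz2, r over 57 cells was 0.91 for Tnf, 0.90 for Ccl3, 0.86 for Ccl4 and 0.83 for Cxcl2, and −0.08 for Ccl2, −0.11 for Ccl7 and 0.06 for Cxcl1. With eCFP it was −0.77 for Tnf and −0.76 for Ccl3, against 0.18 for Ccl2 and 0.22 for Ccl7. Within the 51 labelled cells r with eCFP lay between −0.29 and 0.12 for all 10 genes. Il1a, Il1b and Ccl9 stood between, at 0.50, 0.48 and 0.49 with Lyz2.

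Among 11840 other genes, the 1 most like Ccl3 was Clec4d, a C-type lectin receptor of myeloid cells (r = 0.98), followed by Tnf, and Clec4d was also the most like Tnf (0.97). Those most like Ccl4 were C1qc, a complement subunit made by macrophages (0.97), Ms4a7 (0.97), Cd300c2 (0.96), Adgre1, which encodes the macrophage antigen F4/80 (0.95), and Slamf7 (0.95). Cxcl2 was most like Ccl3 (0.92), and the inflammasome sensor Nlrp3 was also among its 5 nearest genes (0.86). Il1b was most like the chemokine Cxcl3 (0.92), Acod1, the enzyme that makes itaconate in activated myeloid cells (0.86), Ankrd33b (0.86), Rsad2 (0.85) and Slfn1 (0.81). Several of these were above 0 in few cells, 8 for Cxcl3 and 9 for Slamf7.

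The nearest genes of Ccl2 and Ccl7 were of another kind. After each other (0.79), Ccl2 was most like Pold2, a subunit of DNA polymerase delta (0.67), Nasp, a histone chaperone (0.65), Csnk1d (0.65) and Eif2a (0.65). Ccl7 was most like Rpa2, which binds single-stranded DNA (0.67), Timeless (0.66), Nuf2, a kinetochore protein (0.65), and Suv39h1 (0.65). Cxcl1 was most like Actb (0.58), Ccl2 (0.57), Id3 (0.56), Nfkbia, the inhibitor of NF-kB (0.55), and Siah1b (0.54). For Ccl9 no gene passed 0.69 (Prex1). These correlations were not adjusted for the number of genes detected, which Ccl2 and Ccl7 also followed.

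The receptors of these signals were measured in part, and none passed the test. Of 9 receptor genes with a row, 7 were tested, 4 with a higher and 3 with a lower mean in dormant cells, and their median difference was 1.62 against −0.35 for all genes. That median was 0.11 without the low-label cells (all genes 0.09), 0.06 with the mouse as a block (all genes −0.72) and −0.85 without the cells of high Lyz2 (all genes 0.05). Ccrl2, a receptor that binds chemerin, averaged 3.81 ± 3.48 in dormant and 0.37 ± 0.52 in proliferating cells (SD, n = 6 mice each), with an adjusted p of 0.443 in limma. Il1r1, the signalling receptor of interleukin 1, averaged 2.20 ± 2.02 against 5.20 ± 1.90 (limma adjusted p = 0.457), and it was above 0 in 1 of 6 low-label cells and 34 of 51 labelled cells. The Tnf receptor Tnfrsf1b averaged 4.44 ± 2.16 against 1.93 ± 1.54 (limma adjusted p = 0.510), and Ccr1 3.64 ± 3.35 against 1.51 ± 2.08 (0.660). Ccr2, the receptor of Ccl2 and Ccl7, was above 0 in 5 cells, 3 low-label and 2 labelled leukocyte-rich dormant ones, and was not tested. Cxcr1, Cxcr2, Ackr1 and Ackr2 were not analysed here.

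Among 7 genes that process or restrain interleukin 1 and Tnf, all tested, 6 had a higher mean in dormant cells and 0 passed; their median difference was 2.21. Nlrp3, which assembles the inflammasome, averaged 2.72 ± 2.35 in dormant and 0.10 ± 0.17 in proliferating cells (limma adjusted p = 0.437). Pycard, its adaptor, averaged 3.84 ± 4.06 against 0.85 ± 0.68 (limma adjusted p = 0.4997). Il1rn, the secreted antagonist of the interleukin 1 receptor, averaged 2.75 ± 3.04 against 0.54 ± 0.83 (0.540). Adam17, the protease that releases Tnf, averaged 5.42 ± 1.92 against 3.11 ± 2.55 (0.602). Nlrp3 was above 0 in 6 of 6 low-label cells and 0 of 28 labelled cells with few leukocyte transcripts, whereas among cells of that kind Adam17 was detected in 9 of the 11 dormant and 9 of the 17 proliferating ones.

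Of 18 other chemokines and cytokines with a row, 14 were tested, 7 higher and 7 lower, with a median difference of 0.10 and 0 called. Ccl6, a myeloid chemokine, averaged 4.31 ± 4.11 in dormant and 0.35 ± 0.76 in proliferating cells (limma adjusted p = 0.438), Cxcl16 4.20 ± 3.67 against 1.17 ± 1.96 (0.508), Cxcl10, an interferon-induced chemokine, 3.84 ± 3.66 against 1.00 ± 1.41 (0.517), and Pf4, platelet factor 4, 1.54 ± 1.78 against 0.16 ± 0.31 (0.519). Ccl6 was above 0 in 5 of 6 low-label cells and 0 of 28 labelled cells with few leukocyte transcripts, and Cxcl10 in 6 of 6 and in 6 of 28. The highest Cxcl10 value of all cells, 8365 normalised reads, was in a proliferating cell with few leukocyte transcripts, against at most 6623 in low-label cells. The highest Pf4 value, 1012, was also in a proliferating cell of that kind, against at most 897 in low-label cells.

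The 24 genes that carry signals to NF-kB were all tested, 10 higher and 14 lower, with a median difference of −0.09 and 0 called. When each cell was rescaled by the median of ratios the split was 15 higher and 9 lower, with a median of 0.26. The direction of this list against 0 thus changed with the scaling. The medians of all genes were −0.35 and −0.13, with 36.9% and 44.4% of genes higher in dormant cells, so the list lay above both. It also lay above without the low-label cells (0.31 against 0.09) and without leukocyte-rich cells (1.44 against 0.94). With the mouse as a block it was −0.54 against −0.72. Without the cells of high Lyz2 it lay below, at −0.11 against 0.05. Tlr2, a receptor of bacterial lipoproteins, averaged 2.51 ± 3.87 in dormant and 0.18 ± 0.29 in proliferating cells (limma adjusted p = 0.555). Irak3, which restrains Toll-like receptor signalling, averaged 3.09 ± 2.85 against 0.86 ± 1.29 (0.555), Irak2 5.27 ± 2.14 against 2.73 ± 2.95 (0.586), and the adaptor Traf2 1.47 ± 1.31 against 4.00 ± 2.84 (0.525).

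Of 13 feedback and mRNA decay genes, 10 had a higher and 3 a lower mean in dormant cells, with a median difference of 1.04 and 0 called. Zfp36, whose protein tristetraprolin binds the Tnf mRNA and speeds its decay, averaged 6.47 ± 4.18 in dormant and 2.73 ± 1.77 in proliferating cells (limma adjusted p = 0.460). Tnfaip3, which encodes the NF-kB inhibitor A20, averaged 4.83 ± 4.27 against 1.80 ± 2.32 (0.573). Dusp1, a phosphatase of MAP kinases, averaged 7.93 ± 3.62 against 5.35 ± 2.64 (0.606), and Nfkbiz 5.79 ± 3.48 against 3.78 ± 2.49 (0.707). Without the low-label cells the median difference of this list was 0.76, with 9 genes higher and 4 lower (all genes 0.09). With the mouse as a block it was 0.62 (all genes −0.72). Without leukocyte-rich cells it was 1.40, with 10 higher and 2 lower (all genes 0.94). For the interleukin 1 processing genes these medians were 0.40, 0.12 and 1.44, with 6, 7 and 4 genes tested. Leaving out the 10 dormant cells of high Lyz2 was an unplanned alternative. There the median of the feedback and decay list was −0.09, with 6 genes higher and 7 lower. That of the processing genes was −0.38, against 0.05 for all genes in the same cells.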

How the data were processed

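Per the labels' protocols, SMARTer cDNA of single sorted cells was sequenced with added ERCC spike-ins. STAR, RSEM, GRCm38 and mm10 are listed, without roles, in the submitters' processing notes. The authors deposited a signal per gene and cell, reads normalised with BASiCS, per the series text. Within each cell 100% of values above 0 were whole multiples of 1 step (0.628 to 3.29 normalised reads) within 0.01 reads, so whole reads were recovered. Libraries were made in batches of 1 state each, per the labels' protocols, and batch and state cannot therefore be told apart.

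The mouse, named for each cell in the labels, was the replicate. Limma (3.58.1, trend and robust) tested mean log2(value + 1) of genes detected in 6 or more cells, a scale that understates low genes, with Benjamini-Hochberg adjustment; edgeR (4.0.16) and DESeq2 (1.42.0) on summed recovered reads were alternatives. The fits were tested on simulated data. Pairing comes from the labels; paired deviations correlated at 0.337, 0.164, −0.01 and −0.01 in mice 369, 452, 360 and 1185. The genes, lists and thresholds were chosen with earlier results of these data known; named pathway genes are up to 4 per list with the smallest unadjusted p, and named neighbours the 5 highest correlations of each gene above 0 in at least 10 cells. Positions come from GENCODE on GRCm38.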

Additional observations from a re-analysis of the deposited data

Results flagged for a closer look

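The 30 groups examined were the 6 mouse means of each gene and state, and the 4 within-mouse differences of each gene. Of these, 5 held a value far from the others, each in a group of 6 mouse means. For normally spread values chance alone would give about 1 in 20, a rate that does not hold for groups with many means at 0. Ccl2 in dormant cells was highest in mouse 369, at 10.28 on the log2 scale against 5.69 for the next mouse. Ccl9 in proliferating cells was highest in mouse 360, at 3.81 against 0.91. Il1a and Il1b in proliferating cells were highest in mouse 369, at 0.51 and 0.76, with all other mice at 0. With the others at 0, any single mean above 0 would have been flagged. Tnf in proliferating cells was highest in mouse 1185, at 0.25 against 0.08, a value that rests on 1 cell with about 1 normalised read.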

How the results depend on the processing

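The main fit held 57 cells and 6 mice per state. The count of called genes was 0 over all mice under every leave-one-out fit (0 to 0) and under each other alternative except 3. These were 22 with cells of 37 or more detected spike-ins, 18 with edgeR and 308 with DESeq2. The fit behind the 22 held only 16 cells. Its dormant cells came from mice 244 and 369 and its proliferating cells from mice 288 and 369, with 1 cell each from mice 244 and 288. With the mouse as replicate block the count of called genes was 0. Within the 4 mice it was 0 with or without the block, in the separate table and in leave-one-out fits (0 to 0). The share of values above 0 in low-label cells fell to 58.3% at 10 or more reads and was 59.2% with an eCFP threshold of 1000. In labelled leukocyte-rich dormant cells it was 35.5% at 10 or more reads, 71.7% with that eCFP threshold, and 50.0% and 75.0% with the leukocyte threshold at 3 and 9 genes. In leukocyte-rich proliferating cells it was 31.7% at 10 or more reads, and in other proliferating cells 33.2% with the threshold at 9. Rescaling moved the median difference of all genes from −0.35 to −0.13.

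Of the 10 genes, Ccl3, Ccl4, Cxcl2, Tnf, Il1a and Il1b had a positive difference under each alternative that could be fitted, although without the cells of high Lyz2 it was near 0 (Cxcl2 0.14, SE 0.61; Ccl4 0.27, SE 0.40). Without leukocyte-rich cells these 6 genes were above 0 in too few cells to be fitted. Il1a and Il1b were also in too few cells without mouse 369 and with fewer than 37 spike-ins. Their sign was thus seen in 17 alternatives each, against 20 for Ccl3, Ccl4 and Cxcl2. Leaving out 1 mouse gave 4.60 to 6.74 for Ccl3, and −2.72 to −1.23 for Ccl2. Among named pathway genes the sign turned without leukocyte-rich cells for Ccr1 (−0.71), Cxcl10 (−0.45), Irak2 (−0.91) and Traf2 (0.016), where the median of all genes was 0.94, with fewer than 37 spike-ins for Ccr1 (−0.26), and without cells of high Lyz2, an alternative chosen after seeing the data, for Ccr1 (−1.08), Pycard (−0.85), Cxcl16 (−0.90), Cxcl10 (−0.64), Irak3 (−0.19), Irak2 (−0.18), Dusp1 (−0.42) and Nfkbiz (−0.64). The cause was not tested. DESeq2 called 7 of these genes, themselves picked by small p (Ccrl2, Nlrp3, Pycard, Il1rn, Ccl6, Tlr2 and Zfp36), all higher in dormant cells, and 8 of the 65 tested genes of the 5 lists, against 2.6% of all genes.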
